A study of Vitis vinifera with 6 samples.

Results

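The transcripts described here belong to 2 runs of neighbouring gene models of the grapevine genome, measured by 49 of the 29549 probe sets on the array. The first run lies on chromosome 16, in annotation block 100, and takes in the models with running numbers 12 to 54. It has 39 probe sets, since numbers 14, 23, 27 and 48 carry none. The second lies on chromosome 10, in annotation block 42, and takes in models 61 to 70, with 10 probe sets. Members were chosen by identifier, and the bounds of the runs were selected on the rise of neighbouring models under UV in these same arrays. The differences between UV and dark are therefore given as a description, with no p-value. Calls of higher or lower, defined below, rest on a threshold in the same comparison. They only sort the members and are not a test of them.

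Berry skin of Vitis vinifera, cultivar Pinot Noir, was compared after 1 hour under a UV-C lamp and after 1 hour in the dark. Clusters of harvested wild-type berries stood 50 cm from a lamp emitting at 253.7 nm, and the control clusters stood beside them under a box. Each group had 3 arrays, 1 for each separate cluster, hybridised in 1 colour (Cy3). Both groups shared cultivar, tissue and time, and the labels give no other treatment; the delay before sampling and the ripeness of the berries are not stated in the labels.

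Stilbene synthase condenses coumaroyl-CoA with malonyl-CoA to resveratrol, from the same substrates that chalcone synthase uses at the entry to the flavonoid pathway. Resveratrol and related stilbenes are the phytoalexins of grapevine, and berry skin is known to form them after UV-C light, wounding or fungal infection. Grapevine carries a large family of stilbene synthase genes in tandem arrays of near-identical copies on chromosomes 16 and 10, and the locus identifiers of that family carry the block numbers 100 and 42. The name stilbene synthase rests on this position alone and was not tested in these data. The files do not pair identifiers with gene names. A reference table of 29591 grapevine genes names 1 stilbene synthase, VINST1, on chromosome 16, but 0 of the 49 members matched any of its entries. The members are therefore called by chromosome and running number, and no single model is given the name of an enzyme. Markers of skin and of the other berry tissues, and the other genes of the phenylpropanoid pathway, could not be looked up for the same reason. Signal that near-identical copies may share cannot be split between them, because no probe sequences were used.

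Levels are intensities in scanner units, the mean of the 4 probes of a set as deposited. Brightness depends on the probes as well as on the transcript. An intensity therefore shows where a probe set stands on the scanner's scale and does not rank 1 gene's abundance against another's. The median set of the whole array stood between 8967 and 11200 units on single arrays, and the brightest set of each array between 60945 and 63020 units. The limit taken as background, the mean plus 2 SD of random-sequence probes, lay between 1156 and 1434 units. Log2 changes and their standard errors (SE) come from a limma fit over all 29549 sets after background correction and quantile normalization. A set was called higher or lower where its adjusted p in that fit was under 0.05. In bulk skin, more RNA per cell and more cells making it cannot be told apart.

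The median member of both runs stood higher on every UV array than on every dark array. The median member of the chromosome 16 run gave 24618, 23666 and 28568 units on dark arrays 1, 2 and 3, and 53326, 50956 and 49941 units on UV arrays 1, 2 and 3. For the chromosome 10 run the medians were 8797, 8220 and 10854 units in the dark and 47666, 49508 and 45989 units after UV. The runs thus started far apart on the scanner's scale and ended close together. In the chromosome 16 run 36 of 39 members were called higher, 3 were not called and 0 were called lower. In the chromosome 10 run 10 of 10 were called higher. Over all sets 15.8% were called higher and 20.9% lower. Since the runs were bounded on this comparison, nothing is read from that contrast.

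Rises of over 1 on the log2 scale were called for 17 members on chromosome 16 and 8 on chromosome 10, against 5.05% of all sets. Rises of over 2 were called for 5 and 6 members, against 1.69% of all sets. The median fitted change was 0.92 on chromosome 16, with an interquartile range from 0.67 to 1.30, and 2.28 on chromosome 10, with an interquartile range from 1.89 to 2.67. Over all sets the median was -0.05. On the deposited intensities, all 3 UV arrays lay above all 3 dark arrays for 35 and 9 members, against 13.5% of all sets, and 2 and 1 members had groups that overlapped.

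**Figure D1:**
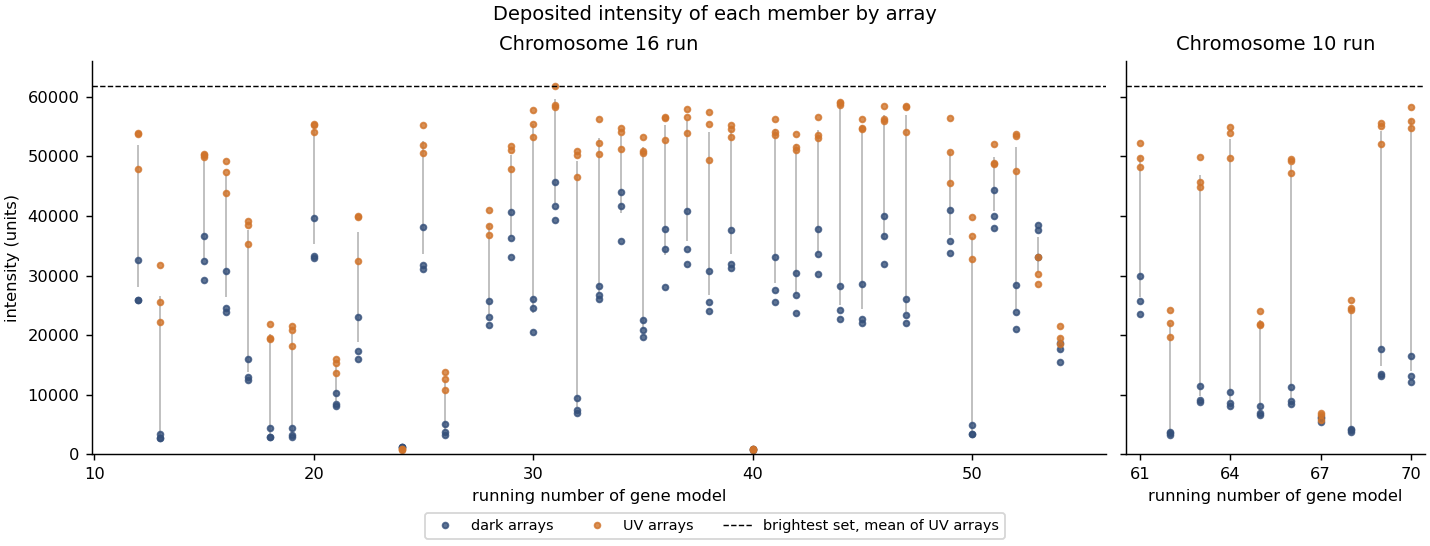
Deposited intensity (scanner units, linear axis) of each member against its running number, with 1 point for each of the 3 dark (blue) and 3 UV (orange) arrays and a grey line joining the group means. The dashed line is the mean brightest set of the UV arrays; most members of both runs reach toward it after UV, and models 24 and 40 of chromosome 16 stay at the bottom of the scale.

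The members of the chromosome 16 run with the largest changes were those that started low on the scale. Model 13 gave 2690, 2713 and 3481 units in the dark and 31729, 25628 and 22166 units after UV, a fitted log2 change of 3.54 (SE 0.16), or 11.7-fold. Model 50 gave 3351, 3379 and 4977 units in the dark and 39835, 36583 and 32792 units after UV, a change of 3.54 (SE 0.17). In both, the lowest UV array stood several-fold above the highest dark array, dark array 3 was the highest of the dark arrays and UV array 1 the highest of the UV arrays. Model 18 went from 2991, 2913 and 4485 units to 21863, 19355 and 19446 units, a change of 2.92 (SE 0.18). Its neighbour, model 19, had nearly the same intensities, at 3308, 2973 and 4467 units in the dark and 21500, 20877 and 18148 units after UV, and a change of 2.84 (SE 0.15). Model 32 rose from 7492, 6923 and 9413 units to 50157, 50972 and 46509 units, a change of 2.82 (SE 0.11). It gained 41270 units, more than any other member of its run, and was the only one of the 5 named so far to come near 50000 units. Model 26 reached 13760, 12646 and 10844 units from 3808, 3299 and 5093 units, a change of 1.92 (SE 0.16). Models 13, 26, 32 and 50 each lay between measured neighbours with dark means of 23509 units or more, while models 18 and 19 were adjacent.

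At the other end of the scale, the 4 brightest members of the chromosome 16 run in the dark had small changes. Model 54, given below, was dimmer in the dark and changed less still. Model 31 gave 41639, 39387 and 45697 units in the dark and 61822, 58672 and 58370 units after UV. Its log2 change of 0.53 (SE 0.07) is 1.44-fold, and its UV mean stood at 96.3% of the brightest set of the same arrays. Model 34 went from 41653, 35732 and 44037 units to 54151, 54750 and 51278 units, a change of 0.42 (SE 0.07). Model 49 went from 35776, 33755 and 41060 units to 56502, 45559 and 50667 units, a change of 0.50 (SE 0.10). For model 51 the intensities were 40066, 37971 and 44440 units in the dark and 52121, 48752 and 48924 units after UV, a change of 0.32 (SE 0.07), the smallest but 1 among the called members of its run. In these 4 models the groups did not overlap, and each UV mean was 49932 units or more. The call for model 51 was lost without scaling between arrays, with the replicate number as a block and without dark replicate 2.

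Between these ends lay 13 members with dark means of 20000 to 30000 units, the most even part of the chromosome 16 run. All 13 were called higher, against 16.5% of all sets of that dark class, with changes from 0.79 to 1.37 and a median UV intensity of 53012 units. Model 44, singled out after its values were seen, gave 24164, 22797 and 28316 units in the dark and 58579, 59100 and 59046 units after UV, a change of 1.30 (SE 0.09). Its UV arrays differed by an SD of 286 units, while its dark arrays differed by an SD of 2874 units. Its UV mean stood at 95.2% of the brightest set of the same arrays. Whether the scanner's limit narrowed the SD after UV was not tested.

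Model 53 and 2 members at background were the ones not called. Model 53 gave 38573, 33120 and 37620 units in the dark and 28629, 30246 and 33076 units after UV, with a fitted change of -0.21 (SE 0.08). All its UV arrays lay below all its dark arrays, a separation in that direction seen in 35.7% of all sets. It was called lower with an intensity trend in the variance model and without UV replicate 3, and in no other setting. Models 24 and 40 were not above background on any of the 6 arrays, at 1161 ± 18.3 and 818 ± 88.6 units in the dark and 880 ± 95.8 and 831 ± 87.8 units after UV (SD, n = 3 each). No change is given for them, although model 24 was called lower in 4 of the settings tried and model 40 higher in 1. Model 54, the last of the run, gave 18738, 15503 and 17620 units in the dark and 21458, 19574 and 18530 units after UV. Its groups overlapped on the deposited scale, and its change of 0.30 (SE 0.07) lost its call in 7 of the 15 settings tried.

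All 10 members of the chromosome 10 run were called higher, and 9 of them were clearly separated. Model 62 had the largest change of the run, 2.99 (SE 0.09), from 3524, 3214 and 3764 units to 19735, 24217 and 22000 units. Model 68 followed with 2.92 (SE 0.07), from 4130, 3764 and 4265 units to 24632, 24159 and 25912 units. The 3 dark values of each of these models lay close together. After UV the SD was 2241 units for model 62 and 907 units for model 68. Models 64, 66 and 63 started at 9052 ± 1263, 9529 ± 1507 and 9770 ± 1527 units and reached 52858 ± 2782, 48641 ± 1299 and 46801 ± 2661 units (SD, n = 3 each). Their changes were 2.71, 2.52 and 2.41. With 43807 units, model 64 had the largest gain of all 49 members on the linear scale.

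Models 70 and 69, at the far end of the chromosome 10 run, went from 13930 ± 2212 and 14765 ± 2498 units to 56318 ± 1783 and 54255 ± 1962 units (SD, n = 3 each). Their changes were 2.14 (SE 0.11) and 2.00 (SE 0.13). Model 65 rose by 1.85 (SE 0.10), from 6935, 6631 and 8046 units to 21943, 21632 and 24007 units. Model 61, the first of the run, was the brightest of it in the dark, at 25653, 23573 and 29922 units, and reached 49690, 52172 and 48214 units, a change of 0.98 (SE 0.09). Model 67 stood out by its small change: 6160, 5495 and 6247 units in the dark and 5737, 6868 and 6631 units after UV. Its groups overlapped, its fitted change was 0.27 (SE 0.07), and its call was lost in 9 of the 15 settings tried.

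Members that were brighter in the dark tended to change less, more clearly on chromosome 16 once its members at background were left out. The dark log2 intensity and the log2 change correlated at r = -0.45 (Spearman -0.61) across all 39 chromosome 16 members, and at -0.90 (Spearman -0.84) across the 37 above background on all arrays. Across the 10 chromosome 10 members r was -0.39 (Spearman -0.48), across all 49 members -0.50 (Spearman -0.63), and over all sets -0.15 (Spearman -0.10). These correlations are a description: the change is computed from the same dark arrays, and the members share arrays and possibly signal. Within classes of dark brightness the runs lay close together in some classes and apart in others, with few members in each. Members with dark means of up to 5000 units had a median change of 2.84 on chromosome 16 (7 members, with the 2 at background) and 2.95 on chromosome 10 (2 members). In the class from 20000 to 30000 units the single chromosome 10 member changed by 0.98, and the median of the 13 chromosome 16 members was 1.08. Between 5000 and 10000 units the median was 1.87 for 2 chromosome 16 members and 2.41 for 5 chromosome 10 members. The clearest gap lay between 10000 and 20000 units, where the 2 chromosome 10 members changed by 2.00 and 2.14 and the 3 chromosome 16 members by 0.30 to 1.57. The difference in the median change of the runs thus went with a difference in starting brightness, with median dark means of 26437 and 9290 units. Its origin was not tested.

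**Figure D2:**
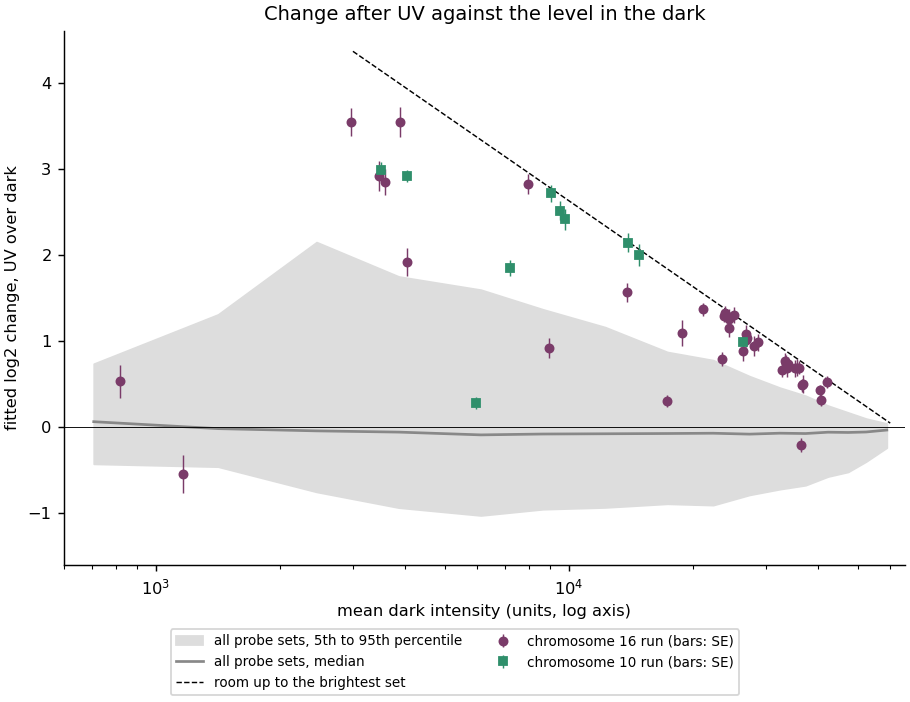
Fitted log2 change (points, bars are SE) of the chromosome 16 (purple) and chromosome 10 (green) members against mean dark intensity (log axis), over the 5th to 95th percentile (grey band) and median (grey line) of all probe sets of like brightness. The dashed line is the log2 distance from the dark intensity to the mean brightest set of the UV arrays, on deposited intensities; all members lie under it, models 44 and 70 closest, and model 53 lies below 0 at the bright end.

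The scanner's upper limit lay close to many members after UV. None of the 49 averaged over 50000 units in the dark. After UV 23 members of chromosome 16 and 4 of chromosome 10 did so, against 3.67% of all sets. Only 328 sets of the array went from 50000 units or less in the dark to more than that after UV, and 27 of them were members. Going from under 30000 to over 50000 units was rarer still, with 83 sets on the array, 11 of them on the chromosome 16 run and 4 on the chromosome 10 run. By rank of brightness among the 29549 sets, the median chromosome 16 member moved from 7391 in the dark to 898 after UV, and the median chromosome 10 member from 15479 to 1576.

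The room left above each dark intensity can be set beside the rise. From its dark mean to the mean brightest set of the UV arrays, the median member had 1.23 log2 units of room on chromosome 16 and 2.74 on chromosome 10. On the deposited intensities, the median member used 77.6% and 79.95% of that room. The room is that of the mean of 4 probes, and the brightest probe of a set had less where its probes were unlike. Model 44 of chromosome 16 used 94.5%, and models 70, 64 and 69 of chromosome 10 used 93.7%, 91.8% and 90.8%. Of the 25 members called higher by over 1, 15 (60.0%) used over 80% of their room, against 122 (8.18%) of the 1492 such sets of the whole array. The starting levels were unlike, and the room depends on them. Of the 1492 sets, 819 had dark means of up to 5000 units and 64 of 20000 to 30000 units. That brighter class held 9 of the 25 members. The members were also chosen for rising, so nothing is read from these shares. Whether saturation held down these rises was not tested, since the columns used here carry no saturation flag. Members above background with UV means of 24901 units or less were models 18, 19, 21, 26 and 54 of chromosome 16. On chromosome 10 they were models 62, 65, 67 and 68. Their means were far from the limit. Single probes may have come closer, since the probes of models 19, 21, 26 and 65 were of unlike brightness.

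Among sets that were bright in the dark, rises of the members' size were few. In the class above 30000 units, 87 of 6221 sets (1.40%) were called higher by over 0.5, and 9 of these 87 were members, out of 14 in the class. Over the whole class the largest change was 0.86 and the largest of a member 0.77. In the class from 20000 to 30000 units, 64 of 3600 sets (1.78%) were called higher by over 1, and 9 of them were members, out of 14. These shares describe the members, which were chosen for rising.

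The members' intensities were more alike after UV than in the dark on chromosome 16. Across its 37 members above background, the SD of the log2 intensity was 1.14 in the dark and 0.59 after UV, and the brightest stood 14.3-fold above the dimmest in the dark and 4.80-fold after UV. On chromosome 10 the SD was 0.88 in the dark and 0.99 after UV, where model 67 stayed behind. No difference of these SDs was tested. After UV 23 members of chromosome 16 averaged over 50000 units, and whether the scanner's limit narrowed their spread was not tested.

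The 4 probes of a set also came together after UV. The coefficient of variation (CV, SD over mean of the probes of a set) fell in 32 of 39 chromosome 16 members and in 7 of 10 chromosome 10 members. Over the whole array the CV fell in 12513 of 29549 sets. Its median went from 0.501 to 0.159 on chromosome 16 and from 0.397 to 0.0952 on chromosome 10, while over all sets it was 0.407 in the dark and 0.417 after UV. On single arrays the chromosome 16 median was 0.526, 0.521 and 0.457 in the dark and 0.114, 0.166 and 0.172 after UV. The dark and UV values of these medians did not overlap. Over the whole array, too, the CV was low at the bright end: after UV its median was 0.570 between 10000 and 20000 units, 0.208 between 40000 and 50000 units and 0.0833 above 50000 units. The 27 members above 50000 units had a median of 0.104. In the dark, the 14 members between 20000 and 30000 units had a median CV of 0.643, against 0.498 for all 3600 sets of that class. In the other dark classes the members were level with all sets or lower. The medians were 0.409 against 0.403 up to 10000 units and 0.362 against 0.553 from 10000 to 20000 units. From 30000 to 40000 units they were 0.363 against 0.388, and from 40000 to 50000 units 0.154 against 0.215.

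**Figure D3:**
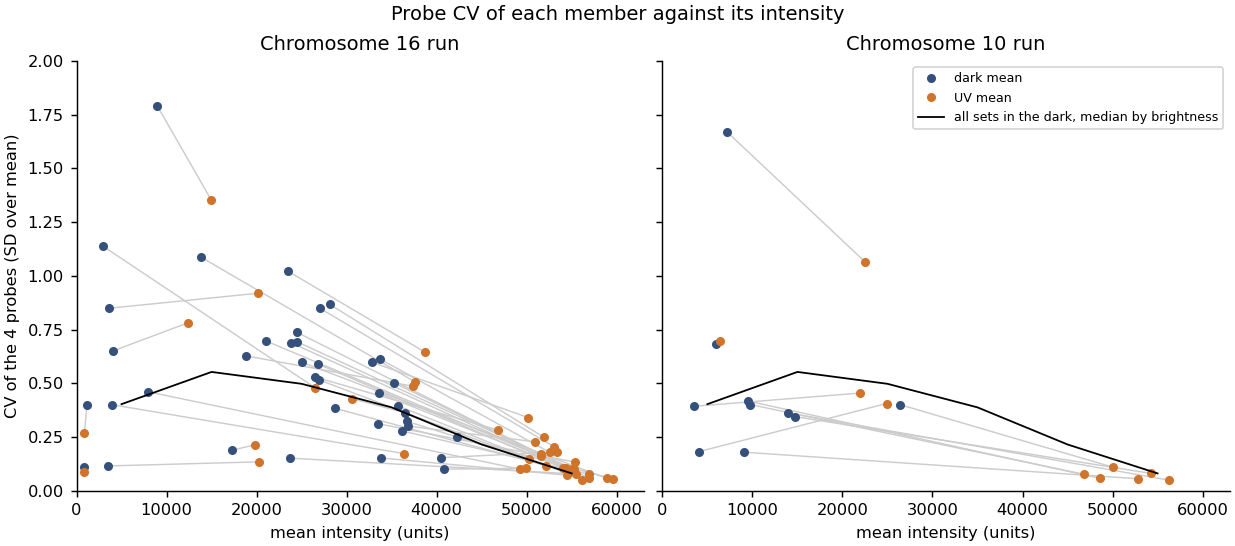
CV of the 4 probes of each member (SD over mean) against its mean intensity (scanner units), in the dark (blue) and after UV (orange), joined by a grey line. The black line is the median CV of all sets by brightness in the dark. The CV is lower after UV in 39 of the 49 members, against 12513 of all 29549 sets, and 30 members have a CV under 0.2 after UV.

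Single members showed how differently the probes of a set could behave. Model 47, singled out after its values were seen, had a CV of 0.689 ± 0.038 at 23816 units in the dark and of 0.0597 ± 0.019 at 56937 units after UV (SD, n = 3 each). Model 21 had the highest CV of any member, 1.79 ± 0.022 in the dark and 1.35 ± 0.083 after UV. With 4 probes the CV cannot exceed 2, which is reached when 1 probe carries all the signal. Its intensities were 8507, 8045 and 10330 units in the dark and 16065, 15266 and 13605 units after UV, a change of 0.92 (SE 0.12). Model 65 of chromosome 10 came next, with a CV of 1.67 in the dark and 1.06 after UV. Model 13, which with model 50 had the largest fitted change, went from 1.14 to 0.479, and model 17 from 1.09 to 0.506 with intensities of 12985, 12550 and 15993 units in the dark and 38491, 39200 and 35217 units after UV. For models 13, 17, 21 and 65 the mean therefore stood for probes of unlike brightness. Other members had unlike probes too, such as model 19, with a CV of 0.849 in the dark and 0.919 after UV. For model 26 the CV was 0.651 in the dark and 0.782 after UV.

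In other members the 4 probes were alike. A CV under 0.2 in both groups was found for 6 members of chromosome 16 and 1 of chromosome 10. Of these 7, 6 were called higher, against 15.8% of all sets of any CV. Model 18 had a CV of 0.115 in the dark and 0.134 after UV with a fitted rise of 7.54-fold, from 3463 to 20221 units on the deposited scale, well below the scanner's limit. For model 64 of chromosome 10 the CV was 0.179 in the dark and 0.0557 after UV, with a fitted rise of 6.56-fold. Model 51 had the lowest dark CV of the members, 0.100, and the exception among the 7 was model 40, which was at background. Model 68 of chromosome 10 went the other way, from 0.182 to 0.406, with a fitted rise of 7.57-fold.

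Within the dark group, the members were not level. Dark array 3 was the highest of the dark arrays for 35 of 39 chromosome 16 members and for 10 of 10 chromosome 10 members on the deposited scale, against 42.1% of all sets. After normalization these numbers were 35 and 7, against 32.2% of all sets. The median normalized difference of dark array 3 from dark array 1 was 0.32 on the log2 scale on chromosome 16 and 0.34 on chromosome 10, and 0.00 over all sets. The highest ratios on chromosome 16 were those of 4 models with dark means under 5000 units: dark array 3 stood 1.52-fold above the mean of dark arrays 1 and 2 for model 18, 1.48-fold for model 50, 1.43-fold for model 26 and 1.42-fold for model 19. Next came model 22, at 1.38-fold with a dark mean of 18785 units, while model 13, the dimmest in the dark of those above background, stood at 1.29-fold. For models 53 and 54 this ratio was 1.05 and 1.03, near the 1.05 of the median set of the array. On chromosome 10 the lowest ratios were those of models 67, 68 and 62, at 1.07, 1.08 and 1.12. Models 62 and 68 had the largest changes of that run, and model 67 the smallest. In the rest of the blocks the median ratio was 1.04 on chromosome 16 and 1.06 on chromosome 10. Against the dark mean, the median normalized level on chromosome 16 was -0.15 on dark array 1 and 0.15 on dark array 3. On chromosome 10 these levels were -0.18 and 0.17. The dark arrays thus differed in the same direction in both runs, and cluster and slide position cannot be told apart. This was noticed after the data had been seen and rests on single arrays.

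The medians of the runs differed less between the UV arrays than between the dark arrays. Many members were near the scanner's limit after UV, and whether it narrowed these differences was not tested. Against the dark mean, the median normalized level of the chromosome 16 run was 0.92, 0.95 and 0.83 on UV arrays 1, 2 and 3, and that of the chromosome 10 run 2.25, 2.32 and 2.26. Without dark replicate 3 the median change of the runs was 1.01 and 2.40, and without dark replicate 1 it was 0.82 and 2.20. The medians without each of the other arrays lay between these values.

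**Figure D4:**
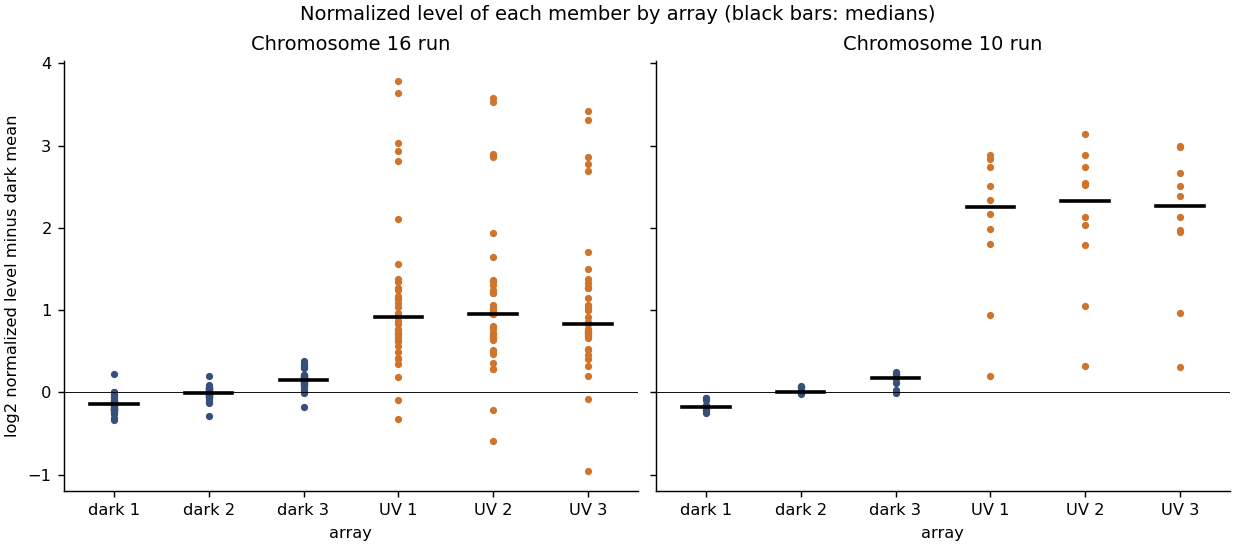
Normalized log2 level of each member minus its dark mean on each of the 6 arrays (points; black bars are medians over the members of a run). The UV medians lie at 0.83 to 0.95 on chromosome 16 and at 2.25 to 2.32 on chromosome 10, and dark array 3 lies above dark array 1 in both runs.

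Apart from the far end on chromosome 16, the ends of the runs were sharp, as follows from how the bounds were set. Model 11, just outside the chromosome 16 run, had a change of -0.02 (SE 0.08), and model 12, just inside it, 0.94 (SE 0.12). At the other end model 54, inside, changed by 0.30 (SE 0.07) and model 55, outside, by 0.09 (SE 0.09). On chromosome 10 model 60 changed by 0.05 (SE 0.13) and model 61 by 0.98 (SE 0.09), and beyond model 70, at 2.14 (SE 0.11), model 71 changed by 0.09 (SE 0.29). With model 53 not called and model 54 close to its outer neighbour, the far end of the chromosome 16 run was the least distinct of the 4 ends.

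The other models of the same blocks showed the background against which the runs lay. Of the other 78 models of block 100 on chromosome 16, 3 were called higher by over 1, at numbers 64, 81 and 107, the largest of them 1.48 (SE 0.12) for model 107. Of the other 82 models of block 42 on chromosome 10, 4 were called higher by over 2, all of them before the run, at numbers 43, 44, 50 and 55. Model 44 of that block went from 2713 ± 117 to 23104 ± 2835 units and model 50 from 3923 ± 109 to 35372 ± 2821 units (SD, n = 3 each), with changes of 3.503 (SE 0.12) and 3.46 (SE 0.11), larger than those of any member on chromosome 10. No other model between them was called higher by over 1, and the 4 were singled out after their values were seen. The median change of the other models was -0.09 in block 100 and -0.04 in block 42.

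**Figure D5:**
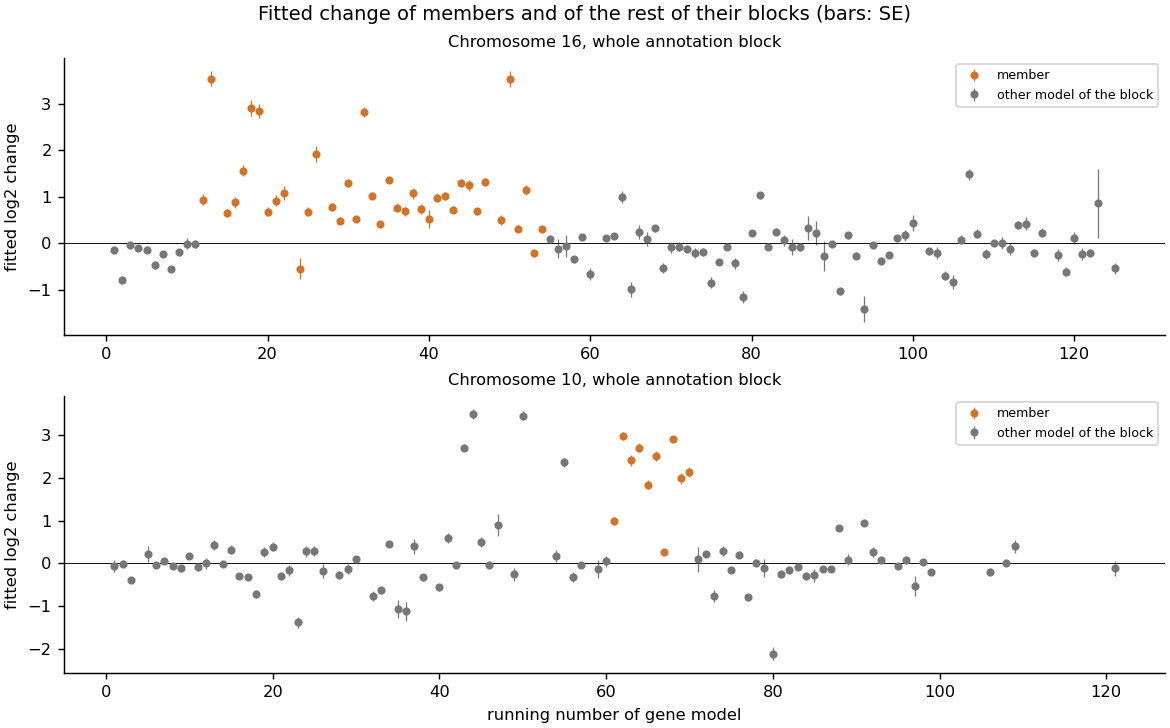
Fitted log2 change (bars are SE) of every measured model of the 2 annotation blocks against its running number, with the members in orange and the other models in grey. The members of both runs stand above 0 except models 24 and 53 of chromosome 16, and in the chromosome 10 block 4 other models between numbers 43 and 55 rise by over 2.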

How the data were processed

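The deposited files give, per array, the mean perfect-match intensity of each probe set on a linear scale, per the file headers. They also hold the CV of its probes, a ratio of SD to mean, per the file headers. The authors also deposited a log10 value table, scaled per array and centred on an unstated baseline, which holds 37 and 10 of the members; it served as an alternative. The genome build and image software: not given in the sources used here.

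Intensities were background-corrected with normexp (offset 50), quantile-normalized on the log2 scale and fitted with lmFit and eBayes in limma 3.58.1 (R 4.3.3), UV against dark, with Benjamini-Hochberg adjustment over all 29549 sets. The fit was tested on simulated data. Precision is limited by 3 arrays per group. All 6 arrays lay on 1 slide, dark and UV on separate positions, so position and group cannot be told apart. The deviations of dark and UV arrays of the same number from their group means correlated at -0.044, -0.059 and -0.033, so replicate numbers were not taken as pairs.

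Members, lists and tests were chosen with earlier results of these data known. Named were all chromosome 10 members and, on chromosome 16, the 4 brightest and 4 dimmest in the dark, the 6 largest and 4 smallest changes, those not called, the 3 highest and 3 lowest probe CVs, and the nearest models outside the runs. The pathway list had 0 named members on the array and was not used.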

Additional observations from a re-analysis of the deposited data

How the results depend on the processing

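Over 9 settings and 6 fits that each left out 1 array, no member reversed its direction, and 705 of the 731 values of single members kept their side of the threshold. The others came from models 51, 54 and 67 (19 values, call lost) and models 24, 40 and 53 (7 values, call gained). The median change was 0.85 on chromosome 16 and 2.21 on chromosome 10 without scaling between arrays, 0.99 and 2.35 with median centring, and 0.83 and 2.15 on the deposited intensities with neither correction nor scaling, a setting chosen after seeing the data. On chromosome 10 it was 2.22 without background correction and 2.215 in the authors' deposited table. Leaving out each array in turn gave medians of 0.82 to 1.01 and 2.20 to 2.40, 34 to 37 and 9 to 10 members called higher, 14 to 20 and 8 to 9 of them over 1, and 7464 to 9784 calls over all sets (36.6% of sets, 10818, with all arrays). With the replicate number as a block, 34 and 10 members were called higher and 8580 sets in all; no other member's call changed than those of models 51 and 54. A slide block was not possible with 1 slide. Brightness near the scanner's limit restricts what the rises of most members can show, and signal at background restricts models 24 and 40.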
